A study of Drosophila melanogaster with 4 samples.

Results

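The widest H3K36me1 domains of adult fly heads were the 345 clusters of at least 20 kb on the large chromosome arms X, 2L, 2R, 3L and 3R. They were chosen by their width in a list of enriched clusters that combines both replicates, out of 7470 clusters on these 5 arms and 7567 in all. H3K36me1 was profiled by chromatin immunoprecipitation and sequencing (ChIP-seq) in heads of Drosophila melanogaster, from wild-type Oregon-R flies of mixed adult stage raised in population cages. There were 2 ChIP samples, each with its own cluster list, and 2 input samples of chromatin without antibody selection, which carry no list. Separate cages for the replicates are not stated, so differences between the lists may be technical in origin. Sieved heads hold neurons, glia, photoreceptors, fat and muscle together, and no expression was measured, so the lists cannot say which of these cells carried a domain. Depth is unknown, since the lists give positions and scores and no counts. Widths were measured on the combined list, which draws on the same libraries as the replicate lists, so every value below is a description and no test was made.

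Lysine 36 of histone H3 takes its methyl groups in fruit flies from the enzymes Set2, NSD and Ash1, and Set2 places the trimethylated form behind elongating RNA polymerase in the bodies of active genes. The monomethylated form has been described in fly cells over introns of active genes, often long ones, together with acetylated histones and other marks of open chromatin. A domain that spans many kilobases in the compact fly genome can therefore be read against the few genes that reach such lengths.

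The 345 domains made up 4.62% of the clusters on the large arms and held 32.5% of the covered bases, 12.8 of 39.5 Mb. They spanned 10.8% of the sequence of the 5 arms. The median width was 30.9 kb, with quartiles of 24.7 and 42.5 kb. Widths thinned out steadily above the threshold, since 88 domains were narrower than 25 kb, 66 reached 50 kb and 7 reached 100 kb. The clusters next to the threshold were 19952, 19965 and 19985 bases wide outside it and 20037, 20062 and 20085 bases wide inside it. Their scores ran from 0.434 to 1.26 outside and from 1.10 to 1.21 inside, so 20 kb is a cut in a continuous range of widths.

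Domains were present on every large arm at similar density. There were 84 on 3R, 78 on 3L, 70 on X, 61 on 2L and 52 on 2R. Per Mb of sequence this came to 3.18 on 3L, 3.12 on X, 3.01 on 3R, 2.65 on 2L and 2.46 on 2R. Arm 3L was the most covered, with 12.8% of its length in domains, and 2R the least, with 8.51%. Median widths ranged from 29.4 kb on 3R to 33.7 kb on 3L. Of all clusters on an arm, domains were 5.06% on 3L and 3.93% on 2R, with the other arms between.

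**Figure D1:**
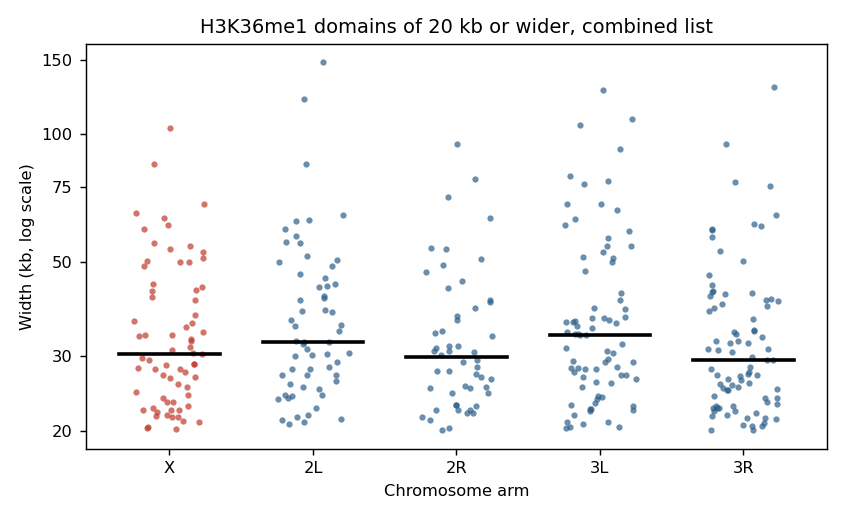
Width of each domain in kb on a log axis, by chromosome arm (X in red, autosomal arms in blue, 1 point per domain), with black bars at the arm medians. The medians lie between 29.4 and 33.7 kb on all 5 arms, and each arm holds a few domains far above the rest.

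The widest domain, 2L:8741092-8888868 in FlyBase release 5 positions, measured 147.8 kb. It scored 0.975 in the combined list, and its clusters averaged 1.05 in replicate 1 and 0.955 in replicate 2 when weighted by shared bases. Each cluster's score was set by the authors, with no stated unit, and is used here to rank and describe within a list. Both replicates broke this domain up, replicate 1 into 10 clusters and replicate 2 into 11, the widest of them 38.8 and 35.6 kb, yet they covered 94.4% and 92.3% of it. Its outer edges lay only 20 and 38 bases apart in the replicates.

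The domains ranked next by width behaved differently from it in the replicate lists. On 3R, 3R:6336148-6465114 (129 kb) was met by 3 clusters of replicate 1 and 2 of replicate 2. On 3L, 3L:11359188-11486691 (127.5 kb) was a single cluster in replicate 1 and 3 clusters in replicate 2. On 2L, 2L:14468006-14589078 (121.1 kb) was in 2 pieces in each replicate, and the wider piece measured 98.4 kb in both. A single cluster in each replicate spanned 3L:10300221-10409107 (108.9 kb), and the same held for 3L:5177912-5270274 (92.4 kb). The widest X domain, X:12097740-12201310 (103.6 kb), was in 7 pieces in replicate 1 and 4 in replicate 2. Of the remaining domains among the 10 widest, 3L:22295955-22401063 (105.1 kb) was in 3 and 5 pieces, 3R:17960041-18055020 (95.0 kb) in 5 and 10, and 2R:15423490-15518215 (94.7 kb) in 2 and 5. All 10 were covered to at least 92.3% by each replicate, so the number of pieces differed far more than the covered share.

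Scores of the domains were high within the combined list. The median was 1.04, against 0.841 for clusters of 10 to 20 kb and 0.449 for all clusters under 20 kb. All 345 scored above the median of the list, 0.457, and 238 (69.0%) lay among its top 10%, at 0.899 or more, a share that is 10% over all clusters by definition. Among clusters of 10 to 20 kb that share was 43.6%. Width and score rose together among the narrower clusters, with a Spearman correlation of 0.634 across 7125 clusters. Across the 345 domains it was 0.220, over a much narrower range of widths. The very highest scores belonged to none of the domains: 3 clusters scored above the best domain, and the widest of these measured 1.06 kb.

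The domain with the highest score, 3L:749080-826759 (77.7 kb), scored 1.98 in the combined list, 2.01 in replicate 1 and 1.95 in replicate 2. Its lower neighbour 3L:711807-748982 (37.2 kb) ranked next but one at 1.78, with 1.84 and 1.74 in the replicates. Only 97 bases lay between them. Similarly, 3R:5700201-5775740 scored 1.68 and 3R:5776033-5808561 scored 1.67, ranks 7 and 8, with 292 bases between them. The second rank went to 2R:1990373-2019707, a domain of 29.3 kb that scored 1.83. The other high scorers were 2R:8903247-8930866 at 1.69, 3R:9809257-9850832 at 1.69, 3L:21873370-21909402 at 1.68, 3L:10300221-10409107 at 1.66 and X:13834484-13884691 at 1.65. At the bottom, 3L:4708037-4736012 scored 0.546, 3R:15238809-15263810 scored 0.548 and 3R:8062812-8089117 scored 0.556.

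Scores in the replicates ranked the domains alike. Across the 345 domains, the weighted scores of replicate 1 and replicate 2 correlated with r = 0.971 (Pearson) and rho = 0.966 (Spearman), given as a description because the same combined list defines the domains. Of the 20 top domains of replicate 1, 18 were among the 20 top domains of replicate 2, and 15 of the bottom 20 were shared. Values in replicate 1 were the higher in 312 of 345 domains, with medians of 1.12 and 1.02.

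Domains on X scored slightly above those on the autosomal arms. Median scores were 1.16 on X against 1.08 on the autosomes in replicate 1, and 1.05 against 0.999 in replicate 2. The difference was 0.0655 ± 0.0266 (SD, n = 2) over the replicates and 0.0285 in the combined list. In the combined list and in replicate 2, the X median fell between the lowest and highest autosomal arm medians, which ran from 0.928 on 2R to 1.11 on 3L and from 0.933 to 1.07. In replicate 1 it lay just above their top value, 1.15. Among clusters of 10 to 20 kb the gap was wider in every list, at 0.118 in the combined list, 0.144 in replicate 1 and 0.130 in replicate 2. There the X medians lay above every autosomal arm.

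All 345 domains shared bases with clusters of both replicates, against 43.8% of all combined clusters on the large arms (55.4% for replicate 1 and 53.3% for replicate 2). The rule uses both libraries, and wide regions are met more easily, so nothing is read from this count. Replicate 1 covered 95.4% of the domain bases and replicate 2 covered 93.8%, a mean of 94.6% ± 1.18 (SD, n = 2). For clusters of 10 to 20 kb the mean was 87.1% ± 1.69 (SD, n = 2). At the level of single domains, 287 were covered to 90% or more by replicate 1 (83.2%, background 21.1%) and 254 by replicate 2 (73.6%, background 20.6%). Among clusters met by the replicate at all, 38.1% and 38.6% were covered that far. Both replicates together held 91.3% of the bases, and 2.07% (266 kb) lay in neither. The lowest coverage was 62.5% in replicate 1 and 48.3% in replicate 2.

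Most domains were nevertheless not a single cluster in the replicates. In replicate 1, 131 (38.0%, background 43.5%) were met by exactly 1 cluster, 98 by 2, 48 by 3 and 68 by 4 or more. In replicate 2, 134 (38.8%, background 41.6%) were met by exactly 1 cluster, 82 by 2, 44 by 3 and 85 by 4 or more. The mean was 38.4% ± 0.615 (SD, n = 2). The background counts clusters met by no replicate cluster as not whole. Among the clusters that a replicate met, 78.5% were met by exactly 1 cluster in replicate 1 and 78.1% in replicate 2, most of them far narrower than a domain. Clusters of 10 to 20 kb, all of which were met, lay between, at 50.9% ± 3.77 (SD, n = 2). In all, 96 domains were whole in both replicates, 35 in replicate 1 only, 38 in replicate 2 only, and 176 were split in both. The number of pieces was equal in 166 domains (48.1%), differed by 1 in 107 and by 2 or more in 72. A replicate cluster that itself reached 20 kb met 193 domains in both replicates and 58 in a single replicate, and 94 domains held none. All 235 such clusters of replicate 1 and all 231 of replicate 2 overlapped a domain, and 38 and 30 of them ran past a domain's edge.

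**Figure D2:**
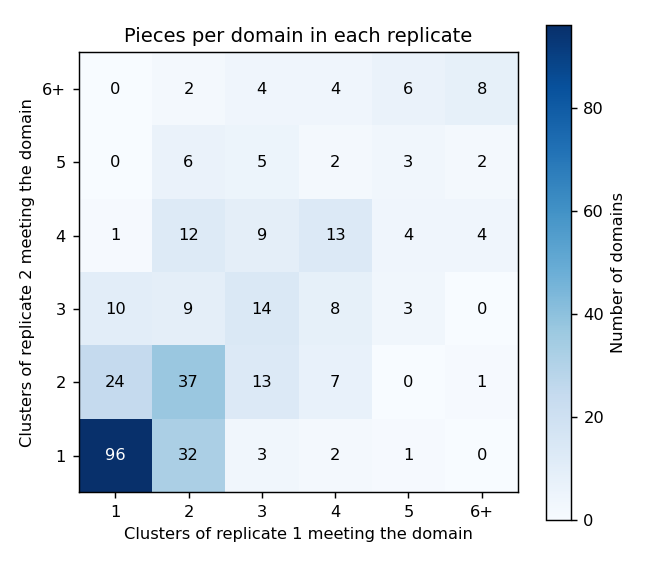
Number of domains by the number of clusters of replicate 1 (x axis) and of replicate 2 (y axis) that meet them, with 6 or more pieces pooled and darker blue for more domains. The largest cell holds the 96 domains that were a single cluster in both replicates, and domains split in one list were usually split in the other.

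Among the domains, splitting went with low score and hardly with width. Domains whole in both replicates had a median score of 1.30, and those split in both had 0.898, while their median widths were 30.2 and 31.5 kb. Across domains, the Spearman correlation of the combined score with the number of pieces was -0.576 in replicate 1 and -0.607 in replicate 2. With width it was 0.0556 and 0.190, over widths of 20 kb and above only. Across that threshold the share met by exactly 1 cluster was lower for the wider set. It was 50.9% for clusters of 10 to 20 kb and 38.4% for domains (means of both replicates). Score and splitting come from the same reads, so these are descriptions of the lists.

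Some of the strongest differences in splitting were on X. The domain X:5059660-5128328 (68.7 kb) was met by 5 clusters of replicate 1 and 12 of replicate 2, and its widest piece measured 39.1 and 13.7 kb. Just below it, X:4997297-5058499 (61.2 kb) was in 3 pieces in replicate 1 and 9 in replicate 2. Farther along, X:8849766-8899828 (50.1 kb), was in 7 and 12 pieces, and replicate 1 covered 95.0% of it while replicate 2 covered 58.9%. On X, 9 of 70 domains (12.9%) were whole in both replicates. On the autosomal arms together 87 of 275 were (31.6%), ranging by arm from 26.9% on 2R to 36.1% on 2L. This comparison was chosen after the values were seen and was not tested. It held the same direction when replicate clusters no more than 1 kb apart were merged, with 45.7% on X and 65.1% on the autosomes. With merging up to 2 kb the values were 78.6% and 87.6%. The median score on X was no lower than on the autosomes, but splitting was not compared between domains of matched score.

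The breaks inside domains were short. Replicate 1 had 459 breaks with a median of 429 bases, and 75.6% were under 1 kb. Replicate 2 had 532 breaks with a median of 553 bases, and 69.4% were under 1 kb. Of the breaks of replicate 1, 204 (44.4%) overlapped a break of replicate 2, and these were longer, with a median of 647 bases against 338 bases for the others. Of those of replicate 2, 200 (37.6%) overlapped a break of replicate 1, with medians of 846 and 437 bases. A longer break is more easily met, so the lengths alone favour this order.

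The outer edges of domains were placed alike in the replicates. Taking the outermost clusters that meet a domain, 584 of 690 edges (84.6%) lay within 1 kb of each other in the replicates, 505 (73.2%) lay within 500 bases, and the median distance was 194 bases. Lower and upper edges gave the same share. Both edges agreed within 1 kb in 246 domains (71.3%, background 30.1%, where unmet clusters count as not agreeing), a single edge in 92 and neither in 7. Among the 3274 clusters met by both replicates 68.7% agreed at both edges, so the share of the domains was near that of met clusters of any width. Among domains whole in both replicates, 95.3% of 192 edges agreed within 1 kb, with a median of 137 bases. For clusters of 10 to 20 kb 80.2% of 1124 edges did, with a median of 255 bases. Against the combined list, replicate edges lay mostly inside the domain, 620 of 690 in replicate 1 and 633 of 690 in replicate 2, by medians of 156 and 172 bases.

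**Figure D3:**
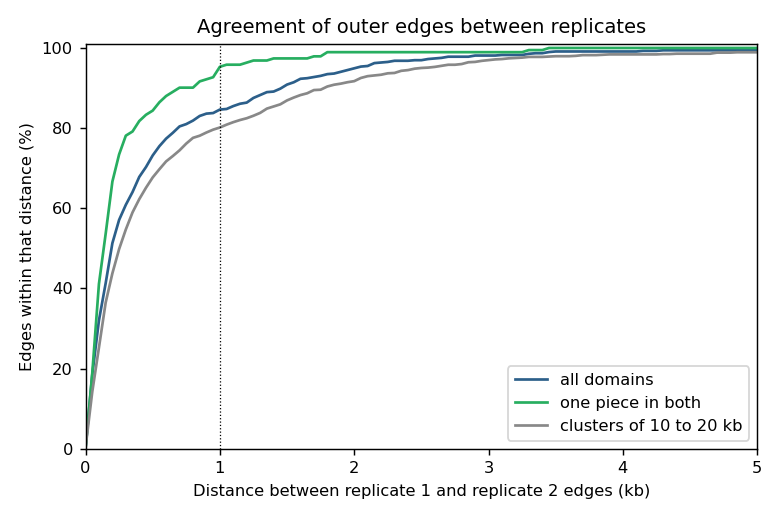
Percentage of outer edges (y axis) that the 2 replicates placed within a given distance of each other in kb (x axis), for all domains, for domains that were a single cluster in both replicates, and for clusters of 10 to 20 kb, with a dotted line at 1 kb. At 1 kb the curves reach 84.6%, 95.3% and 80.2%.

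A few edges disagreed widely. Only 3 edges differed by 5 kb or more. In 2L:6882130-6903117 the upper edge differed by 8308 bases, and replicate 2 covered 48.3% of that domain, the lowest value of all, against 85.6% in replicate 1. In X:3028756-3056694 the upper edge differed by 7119 bases, although the replicates covered 96.7% and 98.4%. In 2L:12260415-12298642 the lower edge differed by 5089 bases, and both replicates held 8 pieces there. The first and the last of these were among the lowest-scoring domains, at 0.569 and 0.603, whereas the X domain scored 1.33.

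Domains were unevenly spaced along the arms. The median distance from a domain to the next was 163 kb, with quartiles of 31.0 and 388 kb and a range from 79 bases to 1.91 Mb in the 340 gaps. Of these gaps, 68 (20.0%) were under 20 kb, 44 under 5 kb and 24 under 1 kb, while 65 reached 500 kb. Neighbours within 20 kb formed 53 runs that held 121 domains (35.1%), among them 40 pairs, 11 runs of 3 and 2 runs of 4. The run 3L:11263505-11486691 placed 4 domains within 223.2 kb, of which they covered 217.6 kb. Runs of 3 at 3L:10219277-10443285 and 2L:14365728-14589078 spanned 224.0 and 223.4 kb.

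Density by 1 Mb window varied from 0 to 8 domains around a median of 3, over 117 windows. Windows with 8 domains were 3L at 0 to 1 Mb, 3L at 10 to 11 Mb, 3R at 10 to 11 Mb and 3R at 17 to 18 Mb. The 20 windows with 5 or more held 120 domains, and 10 windows held none, including 3R at 2 to 3 Mb, 3R at 11 to 12 Mb and 2L at 10 to 11 Mb.

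No replicate cluster bridged the short gaps between neighbouring domains. None of the 68 gaps under 20 kb was spanned by a cluster of replicate 1 or of replicate 2, down to the narrowest of 79 bases at 2R:17790440-17790518, 94 bases at 2L:13060200-13060293 and 97 bases at 3L:748983-749079. Across all combined clusters of the large arms, 66 of 2244 gaps under 1 kb were spanned by a cluster of either replicate (2.94%), and of 6437 gaps under 20 kb it was 1.03%. Of the 68 gaps, 51 held no other combined cluster, among them all 24 under 1 kb, while 17 held up to 3 narrower ones. The background counts gaps between adjacent clusters only, as these 51 are, and since it is low, nothing particular to domains is read from the absence of bridging. Such gaps could not be examined further without read coverage or sequence of the same genome release. Another cluster lay within 1 kb of 207 domains (60%, background 48.9%), against 58.9% of clusters of 10 to 20 kb.

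Genes could be named on 3R, where release 6 gene positions differ from release 5 by a constant shift. Of 4226 genes listed for 3R in NCBI RefSeq's annotation of Release 6, 4206 fell within the release 5 arm, 3387 of them protein-coding, and the last ended 10.9 kb before the end of the arm. The table gives no strand, so the start and the end of transcription cannot be told apart. On the other arms no genes were assigned.

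On 3R, the domains lay almost entirely inside long genes. Protein-coding genes held 91.2% of the bases of the 84 domains, and genes of at least 20 kb held 89.8%, while such genes occupy 71.0% and 37.6% of the arm. For clusters of 10 to 20 kb these shares were 89.0% and 71.4%, and for clusters under 10 kb 82.7% and 51.6%. Within a single gene lay 68 of the 84 domains (81.0%), and 107 of 134 clusters of 10 to 20 kb (79.9%) did so too. The gene that shared most bases with a domain had a median length of 51.0 kb, against a median of 2100 bases for all protein-coding genes of the arm. It was at least 20 kb long for 80 of 84 domains, where a gene that contains a domain must be that long. A typical domain covered 57.9% of that gene (median), so domains were rarely the whole of it.

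Domains inside a gene often reached from close to 1 of its ends into its body. Of the 68 domains inside a gene, 37 (54.4%) had a single edge within 1 kb of an end of that gene, 30 had none, and 1, in Tl, had both. For clusters of 10 to 20 kb inside a gene 34.6% had a single such edge, and for those under 10 kb 18.2%. A wider cluster leaves less of its gene uncovered, so the widths alone favour this order. Counted over all genes, 57 of 168 domain edges (33.9%) lay within 1 kb of a gene end, a zone that holds 28.4% of the arm.

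**Figure D4:**
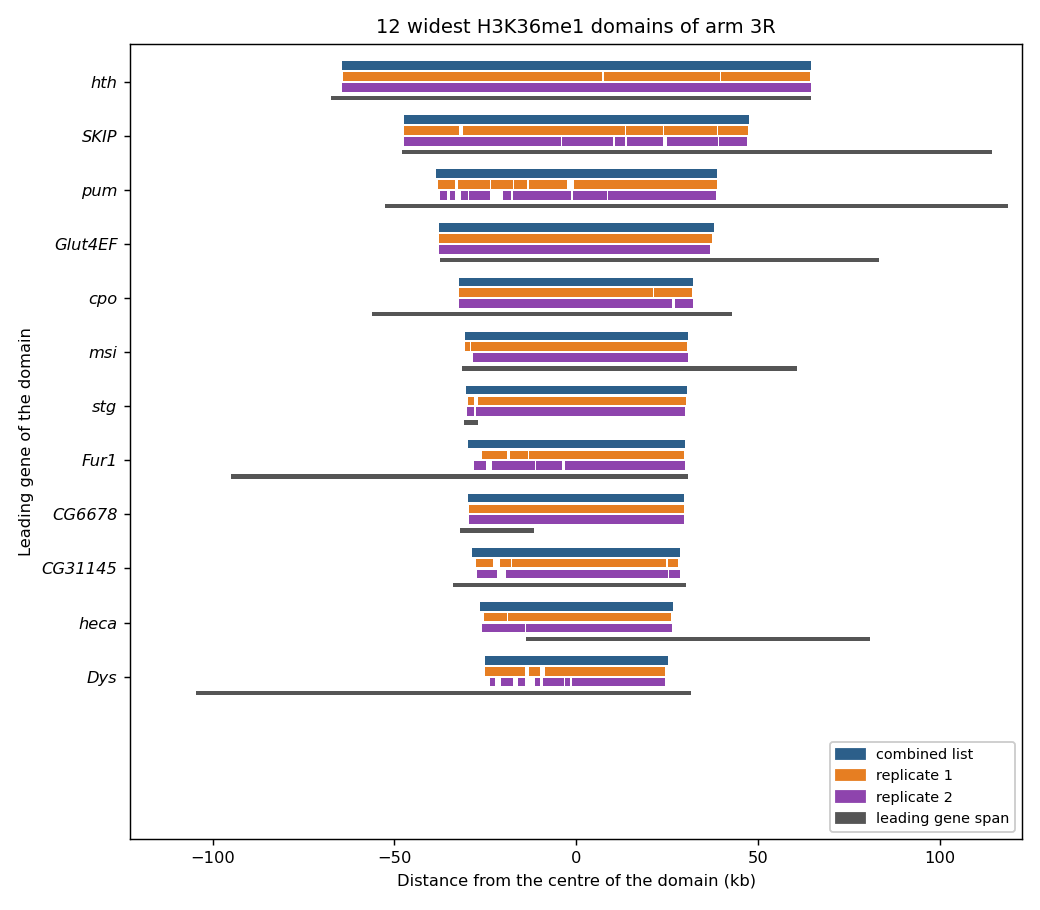
The 12 widest domains of 3R, centred, with the combined list in blue, the clusters of replicate 1 in orange and of replicate 2 in purple, and the span of the gene sharing most bases in grey (x axis, distance from the domain centre in kb). Breaks are frequent at SKIP, pum and Dys and absent in both replicates at Glut4EF and CG6678, and the domains at stg and CG6678 run far beyond the named gene.

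The widest 3R domain covered hth (homothorax), which encodes a homeodomain cofactor of the Hox proteins. It held 97.7% of this gene of 132 kb, scored 1.32 in replicate 1 and 1.33 in replicate 2, and its edges differed by 112 and 174 bases. In SKIP, the second widest domain (95.0 kb) held 58.5% of a gene of 162.3 kb. Its scores were 0.909 in replicate 1 and 0.828 in replicate 2, and its pieces numbered 5 and 10. The hth domain was thus nearly as wide as its gene and little broken, and the SKIP domain was neither.

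Several further wide domains lay in genes for RNA-binding proteins. In pum (pumilio), a repressor of translation with a role in neurons, a domain of 77.3 kb held 45.1% of the gene, in 7 pieces in replicate 1 and 8 in replicate 2. In cpo (couch potato), a nuclear protein of the nervous system, a domain of 64.4 kb held 65.0% of the gene, in 2 pieces in each replicate. A domain of 61.3 kb in msi (musashi), known from the asymmetric division of sensory precursors, held 66.4% of the gene, and its lower edge differed by 2083 bases between replicates. In heph, the polypyrimidine tract-binding protein, a pair of domains together held 37.1% of a gene of 168.5 kb. These genes were named by the rank of their domains, and RNA-binding proteins as a group were not counted.

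Genes for other functions carried the remaining wide domains. Glut4EF and the overlapping gene CG46467 shared both domains at 3R:5700201-5775740 and 3R:5776033-5808561, which together held 89.4% of Glut4EF. In replicate 1 the first of them scored 1.78 and in replicate 2 it scored 1.62, among the highest of the arm. Fur1, a furin protease that cuts precursor proteins, held a domain of 59.7 kb over 47.5% of its length. At heca, 76.0% of a domain of 52.9 kb lay within the gene. The gene jvl (javelin-like) was covered to 85.9% and cdi (center divider, a kinase gene) to 89.1%.

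Tl encodes the Toll receptor of innate immunity and embryonic patterning. Its domain of 42.7 kb covered 98.5% of the gene and was a single cluster in each replicate, at scores of 1.53 and 1.40. NK7.1, a homeobox gene, was covered to 99.0% by a pair of domains 272 bases apart. The first held 93.4% of the gene and the second 5.62%, and 11.7% of the second domain lay in NK7.1. Roadkill (rdx), an adaptor of a ubiquitin ligase in Hedgehog signalling, carried the 3R domain with the highest combined score, with 1.68 in both replicates, over 64.0% of the gene. Further domains among the 20 widest of the arm lay in CG31145, mtd (mustard), side-VI, a member of the sidestep family of immunoglobulin proteins, and smash.

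Dys, the fly dystrophin gene, was the only gene that led 3 domains, and together they held 72.6% of its 136.2 kb. The widest of the 3, at 50.4 kb, scored 0.794 in replicate 1 and 0.672 in replicate 2, was in 3 and 7 pieces, and was covered to 94.2% and 80.4%. Another 9 genes led 2 domains each. They were Eip93F, Glut4EF, NK7.1, Ptp99A, cv-c, heph, kmr, plh and pyd. Of 14 pairs of neighbouring 3R domains less than 20 kb apart, 8 shared a gene, and of 69 pairs farther apart 3 did. Close neighbours thus often met the same gene, which their distance favours. Some lay mostly outside it, as 3R:10196229-10217072 had 11.7% of its bases in NK7.1 and 3R:834107-872499 had 6.89% in plh.

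Not every wide domain lay in protein-coding genes. In 8 of the 84, less than 50% of the bases lay in protein-coding genes. The domain 3R:25078085-25138794 (60.7 kb) met stg (string), the Cdc25 phosphatase that triggers mitosis, with CG14506 and CG45544. In these protein-coding genes lay 12.9% of its bases, and it also met a long noncoding RNA gene. The domain scored 1.16 in replicate 1 and 1.19 in replicate 2. At 3R:913503-952909 (39.4 kb), where the replicates scored 1.47 and 1.33, 1.27% lay in a gene, the short CG43131. At 3R:834107-872499 (38.4 kb), scored 1.59 and 1.45, 6.89% lay in plh, and the table lists long noncoding RNAs in the rest. A domain of 59.4 kb at 3R:17714934-17774362 held the genes CG6678, CG43844, Qsox2 and Qsox3 over 36.3% of its length. Another, 3R:17648436-17679628, met the gustatory receptor genes Gr93a to Gr93d and glec over 27% of its length, and noncoding RNA genes besides.

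Genes of 20 kb or longer were touched by domains far more often than shorter ones. A longer gene is met more easily, and the domains were chosen at the same 20 kb. Gene length and the rule thus favour this order. Of all 3387 protein-coding genes of 3R, 129 were touched by a domain (3.81%), and 106 had at least 50% of their length in domains (3.13%). The share touched was 1.97% of 2592 genes under 5 kb, 1.43% of genes of 5 to 10 kb and 0.971% of genes of 10 to 20 kb. It was 20.1% of 179 genes of 20 to 50 kb and 58.3% of 60 genes of 50 kb or longer. Of the 106, 55 were shorter than 20 kb, with a median of 1855 bases, and 37 of these lay inside a longer gene. Their call therefore rests on the host gene's domain. Of genes of at least 20 kb, 71 of 239 were touched (29.7%) and 51 had at least 50% in domains (21.3%).

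**Figure D5:**
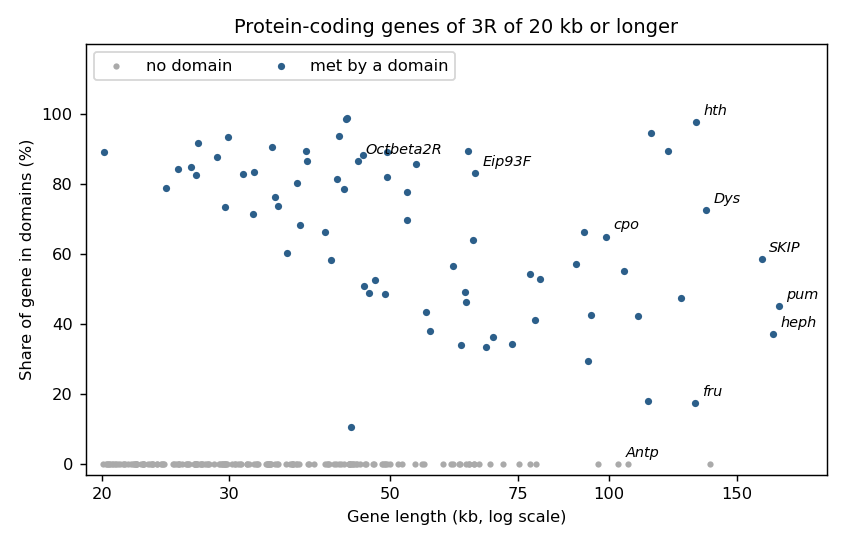
Share of each protein-coding gene of 3R of at least 20 kb that lies in domains, in percent (y axis), against its length in kb on a log axis (x axis), with grey points for genes met by no domain and blue points for the 71 met by at least 1. The longest genes, such as pum, heph and fru, are covered in part, hth nearly whole, and Antp not at all.

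The longest genes differed in the share that lay in domains. Of 15 genes of at least 100 kb, 12 carried a domain and 3 did not. Antp, the Antennapedia Hox gene, had 0% in domains, 4.31% in any combined cluster, 1.77% in replicate 1 and 1.67% in replicate 2. CG34353 and Gfrl also had no domain, but 53.8% and 44.6% of their length lay in combined clusters under 20 kb. The gene fru (fruitless), which directs male courtship behaviour, had 17.4% of its 131.3 kb in a domain and 50.7% in any cluster. The Hox genes Ubx, abd-A, Abd-B, Scr, Dfd, lab and pb had 0% in any combined cluster.

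Gene lists were then set beside these shares, counting genes of 3R with at least 50% of their length in domains, against 3.13% of all protein-coding genes. Transcription regulators had 3 of 42. These were hth, Eip93F, an ecdysone-induced regulator with 83.2% in domains, and E2f1, the cell cycle regulator with 66.2%. A further 4 regulators were touched. Domains held 43.4% of pnt (pointed, an ETS factor of Ras signalling), 41.1% of pros (prospero, a neural fate regulator), 17.4% of fru and 10.6% of svp. Of the 42, 21 were at least 20 kb long. Of these 21, 7 were touched, near the background of 29.7% for genes of that length. The 3 that passed were all among these 21, against 21.3% of all genes of that length.

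Among amine and peptide receptors, 1 of 20 passed, the octopamine receptor gene Octbeta2R with 86.5% of its length in a domain. It was a single cluster in each replicate, scored 1.10 in replicate 1 and 1.00 in replicate 2. InR, the insulin receptor, had 48.6% in a domain and 75% in any cluster. The remaining 18 were touched by none, including the dopamine receptor gene Dop1R1 and the serotonin receptor gene 5-HT7, both over 20 kb long. Of the 12 receptor genes of at least 20 kb, 2 were touched, against 29.7% of all genes of that length.

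Of axon guidance and adhesion genes 0 of 25 passed. Among the 14 of at least 20 kb, 3 were touched, against 29.7% of all genes of that length. The phosphatase gene Ptp99A had 42.4% in domains, beat-VI had 38.0% and klg had 34.1%, and 12 of the 25 had at least 50% in clusters of any width, against 19.2% of all genes and 61.1% of those of 20 kb or longer. Of ion channel genes 0 of 9 passed, and the acetylcholine receptor subunit gene nAChRalpha1 came closest with 49.2% in a domain. It was the only gene touched among the 4 channel genes of at least 20 kb. Its domain was in 2 pieces in replicate 1 and 4 in replicate 2, and scored 0.987 and 0.760.

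The short genes of light sensing and of the ribosome carried no domain. Of 8 phototransduction genes on 3R, among them the rhodopsin genes ninaE, Rh2, Rh3 and Rh6 and the channel gene trp, 0 were touched, and 6 had no combined cluster at all. Of 20 genes for cytoplasmic ribosomal proteins 0 were touched, and 18 had no cluster. Of genes under 5 kb, 1.97% were touched and 81.1% had no cluster, and the ribosomal list, all under 5 kb, was near these shares. Of the phototransduction genes, trp (5.77 kb) and stops (11.0 kb, 53.2% in combined clusters) were longer. No cluster was met by 62% of genes of 5 to 10 kb and 30.1% of genes of 10 to 20 kb. The median length was 2.14 kb in the first list and 1.33 kb in the second, below the width of any domain. Of the enzymes that set or remove methyl groups on lysine 36, NSD (4.87 kb) and Kdm2 (10.8 kb) are on 3R, and neither was touched. Of all genes under 5 kb 1.97% were touched and of those of 10 to 20 kb 0.971%, so nothing is read from this.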

How the data were processed

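The submitters' processing notes name Bowtie 0.12.7 as a tool. Deposited for either ChIP replicate were enriched clusters, each with its position and a score from the authors, and a further list covers both replicates together (the combined list). Positions refer to FlyBase release 5, per the file headers. Not given in the sources used here are the caller, its threshold, the scale of the score and how the combined list was made. Depth is unknown.

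Domains were clusters of at least 20 kb on X, 2L, 2R, 3L and 3R. A replicate cluster met a domain if 1 base was shared. A domain's edge in a replicate was the outermost edge of the clusters meeting it, and its replicate score was their mean weighted by shared bases. Background percentages count the same property over all combined clusters of the 5 arms, or over all protein-coding genes of 3R. Values of both replicates are summarised as mean ± SD. RefSeq Release 6 gene positions on 3R were moved by a constant to release 5, for names, lengths and overlaps only.

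Named were the 10 widest and 10 highest-scoring domains, the extremes of splitting and edge difference, the clusters at the threshold, on 3R the gene sharing most bases with each of the 20 widest domains, and listed genes with domains. Other domains and genes were chosen after their values were seen. Members and lists were chosen with earlier results of these data known. Python 3.11.15, numpy 2.4.6, pandas 2.3.3, scipy 1.17.1 and matplotlib 3.10.9 were used, and the code was tested on simulated lists with planted pieces and edges. Alternatives were other widths, joining, overlaps, tolerances, and each replicate alone.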

Additional observations from a re-analysis of the deposited data

How the results depend on the processing

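The number of domains, 345, depends on the threshold by construction, with 522 at 15 kb and 184 at 30 kb, and was 477 after joining over 1 kb. Single replicate lists held 231 to 235. The median distance between domains, 163 kb, was 103 kb at 15 kb, 372 kb at 30 kb and 129 kb after joining clusters over gaps of up to 1 kb. Domain bases in the replicates, 94.6%, were 90.8% with the upper 50% of each replicate list by score and ranged from 93.8% to 95.4% without a replicate. The share of domains in a single piece, 38.4%, was 72.6% when replicate clusters were joined over 1 kb and 91.0% over 2 kb. Joining can only raise this share, and what made the breaks was not tested. Without joining, the share was 41.3% at 15 kb, 36.7% at 30 kb and 38.0% to 38.8% without a replicate. The gap between X and the autosomes in domains whole in both replicates, -18.8 percentage points, was -9.06 with joining over 2 kb. Counted instead as domains whole in a single replicate list, the gap was -22.5 in replicate 1 and -16.5 in replicate 2. Edge agreement, 84.6% within 1 kb, was 73.2% within 500 bases, 94.9% within 2 kb and 95.3% for domains in a single piece in both replicates. Leaving out a replicate gives no edge comparison. The score difference between X and the autosomes, 0.0655, was 0.0977 at 15 kb, 0.0323 at 30 kb, 0.0285 in the combined list and 0.0467 to 0.0843 without a replicate. Genes touched on 3R, 129, were 76 with domains of 30 kb and 49 if the whole gene had to lie in domains. Listed genes on 3R, 4 of 125 with 50% in domains, were 13 if 1 base sufficed. Both differences between X and the autosomes kept their sign under all their alternatives, and the other results have no direction to turn. The results on X in a single piece and the alternatives for the median score were added after the data were seen. No paired analysis was possible because only the ChIP samples, a single group, have cluster lists.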
